A study of Bos taurus with 8 samples.

Results

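The histone genes were described on arrays of bovine granulosa cells kept at low oxygen (LOL, 1% O2) or normal oxygen (NOL, 21% O2). A transcript cluster, the unit that the array reports, was taken as a histone when any of its platform symbols began with a histone prefix (such as H1-, H2AC, H2AX, H2AZ, H2BC, H3C, H3-, H4C or HIST1H), or when the study's tables describe it as a histone. This gave 76 of 24415 clusters, 71 by their symbol and 5 by the study's tables only. Of the 71, 59 were replication-dependent histones, 11 were variants, and 1 also carried the symbol of a growth factor gene and was kept apart.

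The cells came from small to medium follicles of abattoir ovaries and were kept in serum-free medium for 8 days, with androstenedione, IGF-1 and FSH added. The LOL cultures were moved to 1% O2 from day 6 to day 8, while the NOL cultures stayed at 21% O2. All cultures shared the medium and the hormones, and the labels name no genetic change and no donor or age. Each group had 4 arrays with 1 RNA sample each, numbered 1 to 4. Nothing used here ties the samples to separate cultures or animals, so each p-value covers the spread among the arrays alone, and that spread may be technical.

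Histones package DNA into nucleosomes, which hold H2A, H2B, H3 and H4, while the linker histone H1 binds the DNA between them. Replication-dependent histones are made in S phase from intronless genes that lie in large clusters, and their mRNAs mostly end in a stem-loop bound by SLBP in place of a poly(A) tail. Variant histones come from separate genes, mostly with introns and polyadenylated mRNA, and many are made outside S phase too.

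Across the series, array medians lay between 4.12 and 4.18 on the log2 scale in LOL and between 4.06 and 4.08 in NOL. The median of all differences (LOL minus NOL) was 0.06. All 7 granulosa markers measured passed the test as lower at LOL, with a median signal of 6.22 in LOL and 8.64 in NOL. Their lower levels at LOL go with the condition, and their part in the histone results was not tested. The median marker signal was 2.72 in LOL and 2.45 in NOL for oocytes (8 measured, 3 of them higher at LOL), 2.81 and 2.80 for leukocytes (5 measured, none past the test) and 2.79 and 2.85 for endothelium (3 measured, none past the test). Of the 2 theca markers measured, CYP17A1, the defining enzyme of androgen synthesis, averaged 3.35 in LOL and 3.38 in NOL. INSL3, a peptide hormone, averaged 8.48 in LOL and 7.44 in NOL and was higher at LOL (adjusted p = 1.2e-05, limma).

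Replication-dependent histone transcripts were lower at LOL. Of the 59 clusters, 45 fell, 1 was higher and 13 did not pass an adjusted p of 0.05 in limma, a linear model fitted across all clusters. Those 45 are 76.3% of the class, where 20.5% of all clusters were lower and 20.5% were higher. With clusters of equal values counted once, 43 of 57 were lower. In 45 clusters every LOL array lay below every NOL array, which held for 20.3% of all clusters. When a fold over 2 was also asked for, 18 of the 59 (30.5%) were lower and 0 were higher, against 2.65% and 2.22% of all clusters. The median difference of the class was -0.73, with a range of -2.51 to 0.38.

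The median signal of the class varied little among the arrays of a group. It was 5.82, 5.86, 5.87 and 5.88 in the 4 LOL arrays, against 6.65, 6.89, 6.84 and 6.80 in the 4 NOL arrays. The arrays within a group were not alike in every cluster, since LOL 3 was the lowest LOL array in 27 of the 59 and NOL 4 was the highest NOL array in 29. Without LOL 3, 44 clusters were lower, and without NOL 4, 45 were. Fewer cells in S phase and less histone mRNA in each such cell cannot be told apart in RNA of whole cultures.

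**Figure D1:**
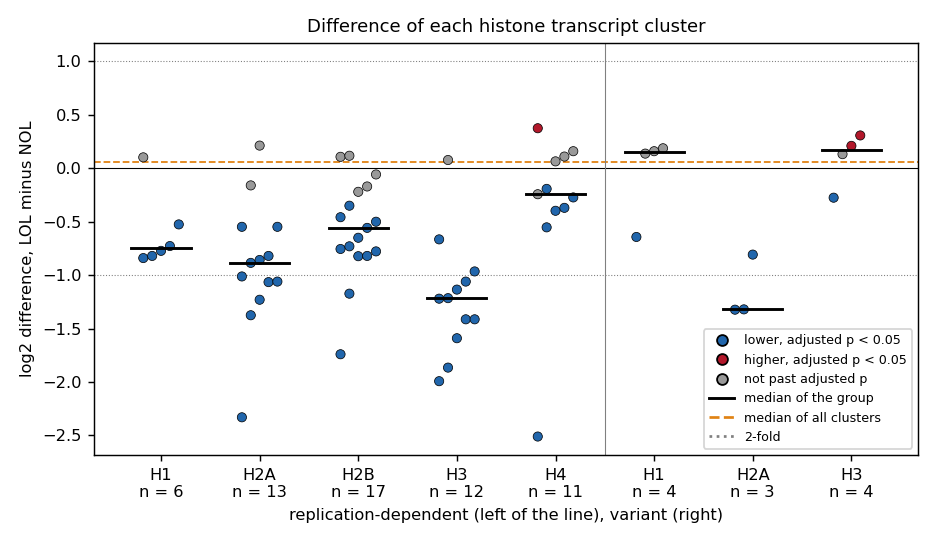
Log2 difference (LOL minus NOL, vertical axis) of each histone transcript cluster, by histone protein, with replication-dependent clusters left of the line and variants right of it. Colour gives the limma call, short bars are medians, the dashed line is the median of all clusters and dotted lines mark a 2-fold change. H3 clusters lie lowest among the replication-dependent groups, with a median of -1.22, while those of H4 have a median of -0.24.

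Most clusters that did not pass had a low signal. A split by the mean log2 signal over all 8 arrays put 44 replication-dependent clusters at 4 or more, of which 42 were lower, 18 of them by more than 2-fold, with a median difference of -0.83. Of the 12623 clusters of the whole array at that level, 35.1% were lower and 27.1% higher, while 4.43% were lower and 4.04% higher by more than 2-fold. Of the 15 clusters below 4, H2BC12, H2BC5 and H1-1 were lower, by differences of -0.82, -0.50 and -0.53, H4C1 was higher and 11 did not pass, and their median was 0.07. The deposited values hold no measure of the background.

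**Figure D2:**
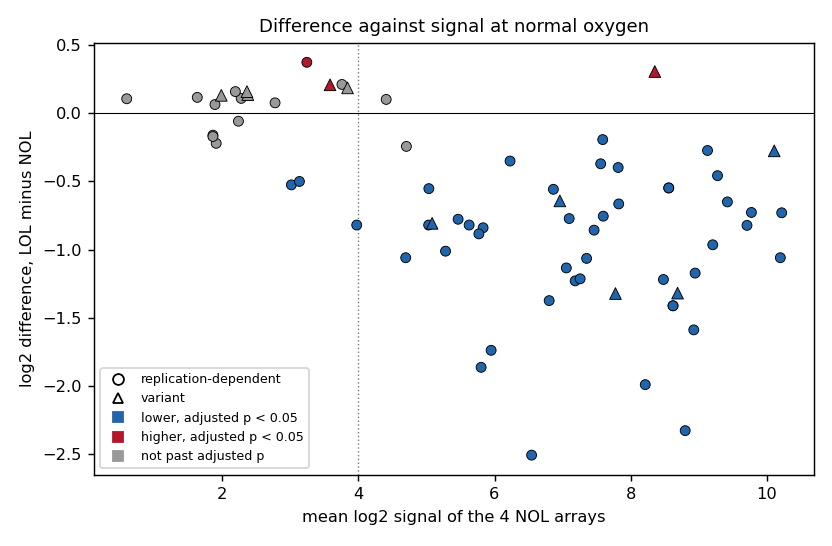
Log2 difference (LOL minus NOL, vertical axis) against the mean log2 signal of the 4 NOL arrays (horizontal axis), with circles for replication-dependent and triangles for variant clusters and the colour giving the limma call. Right of the dotted line at 4, H3-3B is the 1 cluster that was higher at LOL.

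Among the replication-dependent groups, the H3 clusters had the lowest median difference. H3 carries many of the modified residues of the nucleosome tails. Of 12 replication-dependent H3 clusters, 11 were lower and 9 of them by more than 2-fold, with a median of -1.22. Cluster 12805950, annotated with 5 H3 symbols, had log2 signals of 6.12, 6.30, 6.16 and 6.31 in LOL, against 8.09, 8.15, 8.19 and 8.43 in NOL. Every LOL array lay well below every NOL array, and the signal was 3.98-fold lower (difference -1.99, standard error 0.086, adjusted p = 1.5e-07, limma). Cluster 12805811, with the same 5 symbols, had 3.96, 4.06, 3.63 and 4.10 in LOL, against 5.55, 5.94, 5.64 and 6.08 in NOL. Because its LOL mean lay below 4, its change is given as at least 3.64-fold lower (adjusted p = 3.5e-06).

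Those 5 symbols are shared by 7 clusters, whose probes cannot be assigned to 1 gene. All 7 were lower, 6 of them by more than 2-fold, with differences between -1.99 and -0.96. Among them, clusters 12803584, 12803582 and 12803265 were 3.01-fold, 2.33-fold and 2.32-fold lower. H3C13, a gene of the second histone gene cluster, had 2 transcript clusters with equal values in every array. They read 7.19, 7.15, 7.29 and 7.21 in LOL and 8.55, 8.64, 8.59 and 8.71 in NOL, a 2.66-fold lower signal at LOL (adjusted p = 1.6e-07). Another H3C13 cluster was lower by less, with a difference of -0.66 (adjusted p = 0.00017). H3-4, a testis histone in mammals, averaged 2.85 in LOL and 2.78 in NOL and did not pass (adjusted p = 0.56).

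H2A, the partner of H2B in the nucleosome, held the second largest group of strong changes. Of 13 clusters, 11 were lower and 6 of them by more than 2-fold, with a median of -0.89. Cluster 12800906, which the study lists as LOC104968446 and the platform annotates with 7 symbols, read 6.53, 6.53, 6.38 and 6.45 in LOL and 8.76, 8.76, 8.85 and 8.84 in NOL. It was 5.03-fold lower (difference -2.33, standard error 0.061, adjusted p = 8.6e-09, limma), and the arrays of each group differed by little. H2AC14 read 5.52, 5.31, 5.44 and 5.44 in LOL and 6.68, 6.89, 6.84 and 6.80 in NOL, and was 2.59-fold lower. Cluster 12803716, annotated with 6 symbols, was 2.35-fold lower (difference -1.23, adjusted p = 1.4e-06, limma).

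Other H2A genes fell as well. H2AC13 read 9.24, 9.07, 9.10 and 9.14 in LOL, against 10.14, 10.16, 10.18 and 10.31 in NOL, and its difference was -1.06 (adjusted p = 1.1e-06). H2AC21 was 2.09-fold lower. H2AC15 lay just past the 2-fold limit at 2.02-fold, and H3 cluster 12802386 lay just short of it at 1.95-fold. H2AC20 and H2AC6 fell by less, with differences between -0.86 and -0.55. H2AC1, a testis histone in mammals, and H2AC25 did not pass, at -0.16 and 0.21 (adjusted p = 0.34 and 0.18).

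Most H2B clusters were lower as well. Of 17, 12 fell, 2 of them by more than 2-fold, with a median of -0.56. H2BC3 had the largest change of this group, at 4.28, 4.40, 3.99 and 4.17 in LOL and 5.78, 5.83, 6.07 and 6.12 in NOL. It was 3.34-fold lower (difference -1.74, standard error 0.11, adjusted p = 1.1e-06, limma). H2BC4, a gene with known polyadenylated mRNA in human or mouse cells, read 8.87, 8.84, 8.67 and 8.90 in LOL, against 9.19, 9.34, 9.23 and 9.35 in NOL. Its groups did not overlap, but the difference was only -0.46. The 4 clusters that share 13 H2B symbols all fell, by between -1.17 and -0.56. The 5 H2B clusters that did not pass were H2BC19, H2BC11, H2BC14, H2BC26 and H2BC2P, all with means below 2.5 in both groups.

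Linker histones fell together, and none passed 2-fold. Of 6 H1 clusters, 5 were lower, with a median of -0.75. H1-4 read 9.05, 9.0, 9.13 and 9.01 in LOL and 9.73, 9.81, 9.68 and 9.88 in NOL, and its difference was -0.73 (adjusted p = 1.2e-05). H1-3, H1-5 and H1-2 had differences of -0.84, -0.82 and -0.77, and the dim H1-1 one of -0.53. H1-12 averaged 4.51 in LOL and 4.41 in NOL and did not pass, with arrays of the groups overlapping (adjusted p = 0.56).

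H4, the partner of H3, was the least uniform group. Of 11 clusters, 6 were lower, 1 was higher and 4 did not pass, and the median was -0.24. Cluster 12802575, which the study lists as LOC527388 and the platform annotates with 10 symbols, had the largest change of all 70 replication-dependent and variant clusters. It read 4.02, 4.02, 3.98 and 4.12 in LOL and 6.56, 6.52, 6.47 and 6.63 in NOL, and was 5.70-fold lower (difference -2.51, standard error 0.062, adjusted p = 6.6e-09, limma).

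The other 4 clusters with the same or nearly the same H4 symbols behaved otherwise. Their differences lay between -0.40 and 0.07, and 2 of them were lower. One of those, cluster 12681106, lost its call in several settings, with adjusted p between 0.0525 and 0.0981 without LOL 2, LOL 3, LOL 4, NOL 1, NOL 2 or NOL 3, and an adjusted p of 0.125 with quantile normalization. Cluster 12805834 did not pass (adjusted p = 0.064), but did without LOL 2, LOL 4 or NOL 3 (adjusted p = 0.0485, 0.0462 and 0.0452), with median centring (adjusted p = 0.0357) and with the filter on dim clusters (adjusted p = 0.0317). H4C2 was lower in both of its clusters (-0.55 and -0.37), and HIST1H4D, at 8.84, 8.87, 8.78 and 8.94 in LOL and 9.28, 9.18, 9.08 and 8.98 in NOL, by -0.27.

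H4C1 was the 1 replication-dependent cluster that was higher at LOL. It read 3.70, 3.69, 3.58 and 3.50 in LOL and 3.48, 3.35, 3.11 and 3.03 in NOL, a difference of 0.38 (adjusted p = 0.015, limma). The groups did not overlap, but all 8 arrays lay below 4, and the call was lost with quantile normalization (adjusted p = 0.0705). H4C4 and H4C16 also lay below 4 and did not pass.

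The number of symbols went with the size of the change. The 24 clusters with several symbols had a median of -0.93, with 22 lower and 11 of them by more than 2-fold. The 35 with 1 symbol had a median of -0.55, with 23 lower and 7 by more than 2-fold. Probes that match several near-identical genes sum their transcripts, so a shift of a several-symbol cluster cannot be given to a single gene. The median signals differed too, at 6.26 in LOL and 7.42 in NOL for several symbols, and 4.48 and 5.28 for 1 symbol, and the part of signal in the difference was not tested.

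Position in the genome was read from the RefSeq gene table for the clusters with 1 symbol. Of 22 clusters from the larger histone gene cluster, 15 were lower and 1 was higher, with a median of -0.54. Of 8 from the second gene cluster, 7 were lower, with a median of -0.76. These came from H3C13 and H2AC20, each in several clusters, and from H2AC21 and H2BC19. H3C13 and H2AC20 each hold clusters with equal values in every array, so the 7 are not separate measurements. The 12 clusters of genes with known polyadenylated forms in human or mouse cells included 8 that were lower, none by more than 2-fold, with a median of -0.52. Among the 23 other clusters with 1 symbol, 15 were lower and 7 of those by more than 2-fold, with a median of -0.55. The 12 include H2AC20 clusters with equal values, and the 7 include the H3C13 clusters with equal values. In both sets the clusters that did not pass had means below 4 in both groups, except H1-12 in the second set. The labels name 3′ amplification reagents for the labelling step, and how fully mRNA without a poly(A) tail was copied was not tested.

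The variants did not move as 1 group. Of 11 clusters, 5 were lower and 2 of them by more than 2-fold, 2 were higher and 4 did not pass. As shares, 45.5% were lower and 18.2% higher, where 20.5% of all clusters were lower and 20.5% higher, so the share higher lay near that of all clusters. The median was 0.13 over all 11 and -0.73 over the 6 with a mean signal of 4 or more over all 8 arrays. The variants of H2A and the linker histone H1-10 were lower, while those of H3 under the symbol rule lay between -0.28 and 0.31. CENPA, the centromeric H3, is outside that rule and was lower, by -1.605 (adjusted p = 2.7e-05, limma).

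H2AX, whose phosphorylated form marks DNA breaks, read 6.55, 6.38, 6.42 and 6.47 in LOL and 7.70, 7.81, 7.72 and 7.88 in NOL. It was 2.50-fold lower (difference -1.32, standard error 0.067, adjusted p = 3.4e-07, limma), and no LOL array came near the NOL arrays. H2AX is known to have both a stem-loop and a polyadenylated mRNA, and counting it with the replication-dependent class gave 46 of 60 lower. Cluster 12851741, annotated with H2AZ2 and H2AZ1, which encode the H2A.Z proteins found at gene starts, read 7.43, 7.45, 7.22 and 7.38 in LOL and 8.82, 8.64, 8.60 and 8.70 in NOL. Its difference was -1.32 as well (adjusted p = 6.7e-07).

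H2AZ1 alone, in a cluster of its own, read 4.12, 4.29, 4.41 and 4.28 in LOL and 5.26, 5.13, 5.0 and 4.94 in NOL, a difference of -0.81 (adjusted p = 4.8e-05). H1-10, a replication-independent linker histone, read 6.28, 6.32, 6.37 and 6.30 in LOL and 6.90, 7.10, 6.88 and 6.96 in NOL, a difference of -0.64 (adjusted p = 2.9e-05). In both clusters the groups lay apart.

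The H3.3 genes went in opposite directions. H3-3A and H3-3B encode the same protein, H3.3, which replaces H3 outside S phase. H3-3A read 9.80, 9.78, 9.91 and 9.85 in LOL and 10.08, 10.07, 10.14 and 10.15 in NOL, and was lower by a difference of -0.28 (adjusted p = 0.0035, limma). H3-3B read 8.66, 8.62, 8.61 and 8.76 in LOL and 8.51, 8.22, 8.44 and 8.25 in NOL, and was higher by 0.31 (adjusted p = 0.012). Neither pair of groups overlapped, both changes were well under 2-fold, and both calls held in all 13 alternative settings.

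The other variant clusters had a mean below 4 over all 8 arrays. H3-5 read 3.82, 3.67, 3.79 and 3.89 in LOL and 3.53, 3.53, 3.58 and 3.69 in NOL, with overlapping groups and a difference of 0.21 (adjusted p = 0.034, limma). Its call was lost without LOL 1, LOL 3, LOL 4, NOL 1, NOL 2 or NOL 3, with adjusted p between 0.0567 and 0.0879, so that 1 variant cluster was higher in place of 2. It was also lost with median centring and with quantile normalization (adjusted p = 0.156 and 0.273). H3-3D, the oocyte linker histone H1-8 and both clusters of the sperm linker histone H1-7 did not pass, with differences between 0.13 and 0.19. Beside the listed germ line histones H3-5, H1-8 and H1-7, the spermatogenic markers had a median signal of 3.09 in LOL and 2.86 in NOL. Of these markers, 1 of 4 was higher at LOL, and the part of such cells was not tested.

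**Figure D3:**
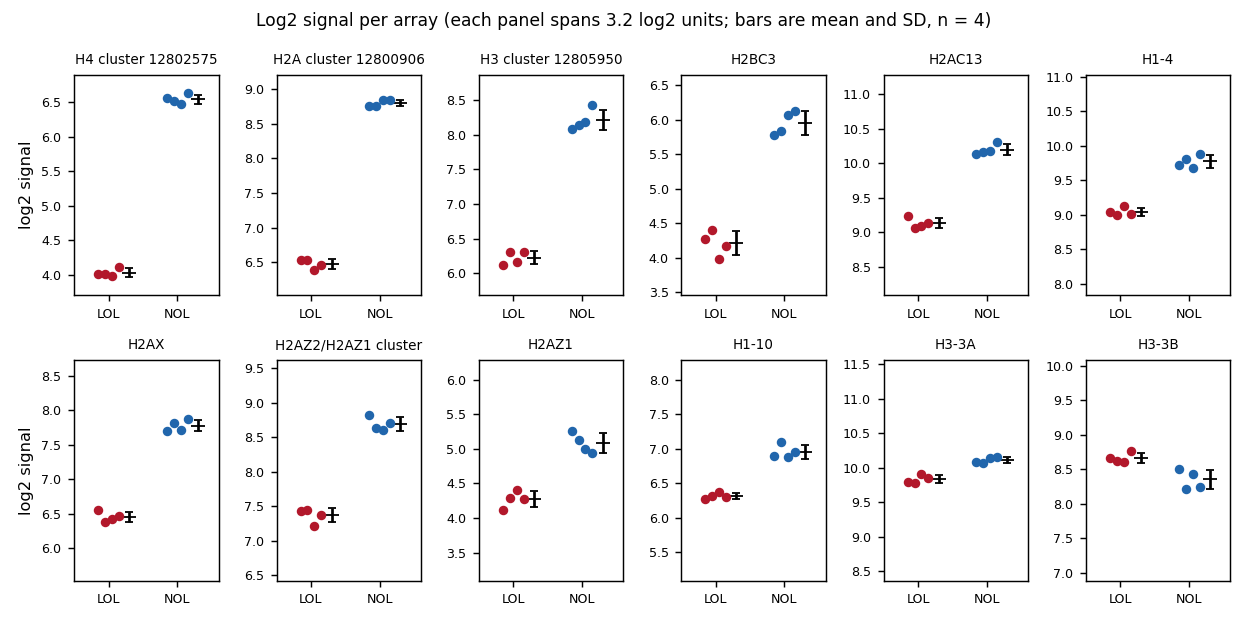
Log2 signal (vertical axis) of 12 histone transcript clusters in each array, LOL left and NOL right in every panel, with points for arrays and bars for the mean and SD of 4 arrays. The replication-dependent clusters are in the upper row and the variants in the lower row, and the panels span equal log2 ranges, so that the 5.70-fold change of cluster 12802575 and the difference of -0.28 in H3-3A can be read on 1 scale.

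Where both classes encode the same protein, they can be set side by side. The variant H3-3A and H3-3B had differences of -0.28 and 0.31, and the replication-dependent H3 clusters a median of -1.22. CENPA, an H3 variant outside the symbol rule, lay at -1.605, below that median. For H2A the median was -1.32 in the 3 variant clusters and -0.89 in the replication-dependent class. With MACROH2A1, MACROH2A2 and H2AJ, which are H2A variants under other symbols, the variant median was -0.65, so the order of the 2 classes turned. That median leaves out H2AL1Q, another H2A symbol outside the rule. H2AL1Q went the other way, by 0.34, and did not pass (adjusted p = 0.0525, limma). For the linker histone, H1-10 at -0.64 lay within the range of the H1 clusters of the replication-dependent class. The difference between the classes was not tested, since clusters share probes and are not replicates.

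Several clusters fell outside the symbol rule or the 2 classes. MACROH2A1, MACROH2A2 and H2AJ had differences of -0.23, -0.50 and -0.49 (adjusted p = 0.0276, 0.0002 and 0.00486). CENPA, the centromeric H3, was lower by -1.605 (adjusted p = 2.7e-05, limma). H2AL1Q averaged 4.67 in LOL and 4.33 in NOL, a difference of 0.34, and did not pass (adjusted p = 0.0525, limma). A cluster with the symbol H2B was lower, with a difference of -0.765 (adjusted p = 6.6e-05, limma). H2BL1 did not pass, at -0.04 (adjusted p = 0.645, limma). The call of MACROH2A1 was lost without LOL 1, LOL 2, LOL 3, NOL 1 or NOL 4 and with quantile normalization. The cluster that carries a growth factor symbol beside H2B symbols, 12840420, was lower by a difference of -0.33 (adjusted p = 0.00087). The 5 clusters listed by the study's tables only, which are listed there because they changed on these arrays, had differences between -2.20 and -1.18, and these values are a description.

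Genes that make, process and deposit histones were taken as a list with roles, of which 56 of 63 were measured. In that list 28 were lower (50%), 9 were higher (16.1%) and 19 did not pass, and 3 were lower by more than 2-fold. Of all clusters, 20.5% were lower, 20.5% higher and 2.65% lower by more than 2-fold. Of those with a mean signal of 4 or more over all 8 arrays, these shares were 35.1%, 27.1% and 4.43%. The median signal of the list was 5.43 in LOL and 5.64 in NOL. The median of the list was -0.23.

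Genes of histone gene transcription fell in part. CCNE2, a cyclin that acts with CDK2 at the start of S phase, averaged 3.67 ± 0.11 in LOL and 5.29 ± 0.13 in NOL (SD, n = 4 each) and was at least 3.07-fold lower (adjusted p = 4.3e-07, limma). CASP8AP2, CCNE1, CDK2 and E2F1 were lower too, by differences between -0.72 and -0.40. NPAT, the CDK2 substrate that activates replication-dependent histone genes, was higher, at 7.09 ± 0.08 in LOL and 6.75 ± 0.04 in NOL (SD, n = 4 each), a difference of 0.34 (adjusted p = 0.00143). GON4L was higher by 0.77 (adjusted p = 3.4e-05), and HINFP and POU2F1 did not pass.

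Of 13 genes of 3′ end processing and decay of the stem-loop mRNA, 3 were lower (23.1%), 2 higher (15.4%) and 8 did not pass. Of all clusters, 20.5% were lower and 20.5% higher, close to these shares. Both lay below the 35.1% lower and 27.1% higher of clusters with a mean signal of 4 or more over all 8 arrays. SLBP, which binds the stem-loop, averaged 5.05 ± 0.05 in LOL and 5.14 ± 0.06 in NOL (SD, n = 4 each), a difference of -0.09 (adjusted p = 0.25, limma). SYMPK and CPSF2, which belong to the cleavage factor, were lower by -0.72 and -0.45, and TUT1, a terminal uridylyltransferase, by -0.44. MIF4GD, an SLBP partner in translation, and TENT4A, a poly(A) polymerase, were higher by 0.24 and 0.34, a call that MIF4GD lost with median centring (adjusted p = 0.0507).

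The genes listed for deposition of replication-dependent histones, chaperones among them, were mostly lower. Of 12 measured, 9 were lower (75%) and none higher, with a median of -0.40. Of all clusters, 20.5% were lower and 20.5% higher. ASF1B, which hands H3 and H4 to the assembly factors and is known from dividing cells, averaged 3.24 ± 0.07 in LOL and 5.11 ± 0.12 in NOL (SD, n = 4 each), at least 3.64-fold lower (adjusted p = 8.9e-08, limma). ASF1A, its relative, was lower by only -0.25 (adjusted p = 0.0133). NASP, a chaperone of H3 and H4 in the soluble pool, and MCM2, which also belongs to the replicative helicase, were lower by -0.64 and -0.87. CHAF1A was lower by -0.34, and CHAF1B, the other large subunit of the same assembly factor, did not pass (difference 0.10, adjusted p = 0.521).

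Genes that deposit variants were found in both directions. Of 15 measured, 9 were lower (60%), 4 higher (26.7%) and 2 did not pass. The list includes CENPA, which is itself a deposited variant and was the 1 gene lower by more than 2-fold. Of all clusters, 20.5% were lower and 20.5% higher. Of the clusters with a mean signal of 4 or more over all 8 arrays, 35.1% were lower and 27.1% higher. The share higher in this role lay near the latter. The H3.3 factors HIRA, UBN1, CABIN1 and DAXX were lower, by differences between -0.77 and -0.32, and ATRX, the partner of DAXX, did not pass. Genes of the centromere were lower: CENPA, the centromeric H3, averaged 3.81 ± 0.32 in LOL and 5.42 ± 0.23 in NOL (SD, n = 4 each), at least 3.04-fold lower (adjusted p = 2.7e-05, limma), and its chaperone HJURP was lower by -0.78. For H2A.Z, ANP32E, which removes it, and VPS72, YEATS4 and INO80, subunits of complexes that exchange it, were higher by 0.56, 0.46, 0.43 and 0.29, and INO80 lost its call with median centring (adjusted p = 0.0521). ZNHIT1, another subunit, was lower by -0.22 (adjusted p = 0.041), a call lost without any 1 array except LOL 4, and EP400 did not pass. SSRP1, a subunit of FACT, which moves nucleosomes aside for polymerases, was higher by 0.36, while its partner SUPT16H did not pass.

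**Figure D4:**
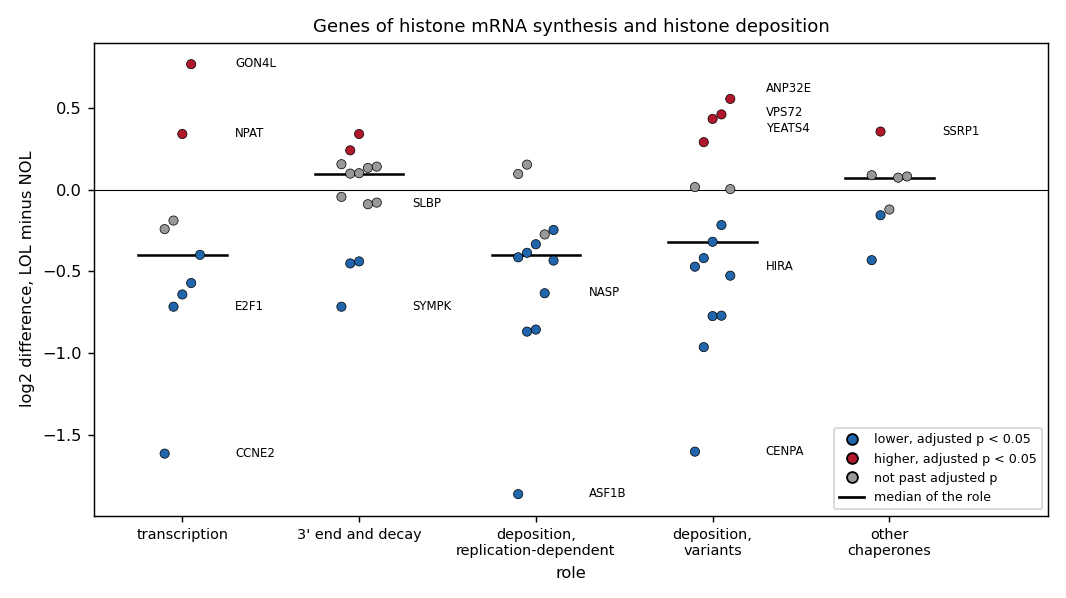
Log2 difference (LOL minus NOL, vertical axis) of each measured gene of histone mRNA synthesis and histone deposition, by role (horizontal axis), with the colour giving the limma call and short bars the median of each role. ASF1B, CCNE2 and CENPA lie below the others, and GON4L and ANP32E lie highest.

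Genes of S phase were lower in part as well. Of 26 measured, 19 were lower, 9 of them by more than 2-fold, 1 was higher and 6 did not pass, with a median of -0.76. Of all clusters, 20.5% were lower and 2.65% lower by more than 2-fold. MCM2 and CCNE2 stand in both lists. RRM2, the small subunit of ribonucleotide reductase, averaged 3.37 ± 0.14 in LOL and 5.92 ± 0.24 in NOL (SD, n = 4 each), at least 5.84-fold lower (adjusted p = 2.2e-07, limma). CCNA2, the cyclin of S phase and later, was at least 4.72-fold lower and POLE, a replicative DNA polymerase, at least 3.12-fold lower. LIG1, the ligase that joins Okazaki fragments, was higher by 0.62 (adjusted p = 0.00018). The part of the S phase genes in the histone result was not tested.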

How the data were processed

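Total RNA of 8 samples was hybridised to the Affymetrix Bovine Gene 1.0 ST array. The deposited log2 values were made by the authors with RMA (robust multichip averaging, no version stated), which corrects background, normalizes between arrays and summarises probes. They lay between 0.08 and 12.42, and no further step was applied. Arrays have no depth, so their number (4 in each group) and the signal limit precision. The genome build is not given in the sources used here.

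LOL and NOL were compared over all 24415 clusters with limma 3.58.1 in R 4.3.3 (lmFit, eBayes, two-sided), with Benjamini-Hochberg adjustment over all clusters. The test was checked on simulated data. Symbols came from the platform annotation, which gives 1 symbol for 18457 clusters, several for 688 and none for 5270. All 64 histone symbols of the 2 classes were found in the RefSeq gene table of another build, used for names and neighbours only. A gene with several clusters outside the members was represented by the brightest.

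Named were the 12 largest called replication-dependent clusters, every variant and every member higher past the adjusted p. Of the replication-dependent members not passing, up to 6 with the highest mean signal were named, some of them below 4. The study's own histones, the poly(A) and germ line lists, and the supply and S phase genes with the largest changes were named too. Other members and supply genes were named after their values were seen. A fold whose lower group had a mean below 4 was written as at least. The split at a mean of 4 over all 8 arrays was added after the values were seen. Members, lists and rules were chosen with earlier results of these data known. The alternatives were an analysis of variance without moderation, the replicate number as a block, median centring, quantile normalization, a filter on dim clusters, leaving out each array, counting equal clusters once, clusters with 1 symbol only, H2AX or the study's own clusters counted with the replication-dependent class, and a fold over 2.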

Additional observations from a re-analysis of the deposited data

Results flagged for a closer look

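In 11 of 240 groups of 4 arrays, 1 array lay far from the other 3 (Dixon's test), where chance alone gives about 1 in 20. Of these, 8 were histone clusters. H1-5 read 4.53 in LOL 4, with the other LOL arrays between 4.08 and 4.12. H3 cluster 12803584 read 7.14 in LOL 2, with the others between 7.38 and 7.42. H1-1 read 2.34 in LOL 1, against 2.53 to 2.55. H2B cluster 12804914 read 6.65 in NOL 1, against 6.92 to 6.96. H2AC6 read 4.67 in LOL 3, against 4.84 to 4.86. H2AC20 read 7.95 in LOL 2 in both of its clusters with equal values, against 8.03 to 8.04, and 6.28 in LOL 3 in its other cluster, against 6.70 to 6.74. Among the genes of histone synthesis and deposition, CCNE1 read 4.63 in LOL 3 (others 4.96 to 4.98), MMS22L read 3.42 in LOL 4 (others 3.05 to 3.07) and ZNHIT1 read 6.16 in NOL 2 (others 5.98 to 5.99). Apart from ZNHIT1, each of these clusters kept its call when any 1 array was left out.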

How the results depend on the processing

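Of 1535 values of 120 named clusters under 13 alternative settings, 1470 kept their direction and side of the threshold, 50 lost the call, 7 gained it and 8 changed sign, and 103 clusters kept both throughout. The count of replication-dependent clusters lower at LOL was 44 to 46 when 1 array was left out and 43 of 57 with equal clusters counted once. It was 23 of 35 with 1 symbol only and 18 with a fold over 2. The count higher stayed at 1 when 1 array was left out and was 0 with quantile normalization, the filter on dim clusters or a fold over 2. The median was -0.75 to -0.70 without 1 array and -0.55 with 1 symbol only. For variants, 2 were lower with a fold over 2, the count higher was 1 to 2 without 1 array, 1 with median centring, quantile normalization or the filter, and 0 with a fold over 2, and the median turned to -0.64 under the filter, which leaves out the 4 dim clusters. Without 1 array, the differences of 5 clusters spanned 0, none past the test: -0.072 to 0.328 in H4C4, -0.063 to 0.37 in H2BC2P, -0.023 to 0.172 in H1-12, -0.181 to 0.023 in H2BC14 and -0.039 to 0.214 in H4 cluster 12844992. With quantile normalization H3-4 turned to -0.024 and H4 cluster 12844992 to -0.008, and the cause was not tested. Over all clusters, median centring gave 5693 lower and 3585 higher, where 4999 were lower and 5017 higher without it. The replicate numbers are shared between groups, but same-numbered arrays correlated at -0.03, 0.02, 0.11 and 0.03 and so share only a number. With the replicate block 45 replication-dependent clusters were lower and 1 higher (median -0.73), 5 variants were lower and 2 higher (median 0.13), and 27 supply genes were lower and 9 higher. Under that block H4 cluster 12805834 passed (adjusted p = 0.035), while H4 cluster 12681106, NCL and ZNHIT1 did not (adjusted p = 0.062, 0.0853 and 0.0594, limma), and no other named cluster changed its call. Signal over background limits the dim clusters.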
